A study of Drosophila melanogaster with 27 samples.

Results

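The genes for the initiation and elongation factors of translation were followed across wild-type and experimental Drosophila melanogaster embryos. Members were all genes whose FlyBase symbol begins with eIF or eEF followed by a digit, which gave 51 of the 17714 genes in the files. By role they comprised 5 eEF1 genes, 2 genes for eEF2 and eEF5, 5 genes for eIF1, eIF1A, eIF5, eIF5B and eIF6, 5 for eIF2, eIF2A and eIF2D, 5 for eIF2B, 16 for eIF3 and 13 for the eIF4 factors. The rule works on symbols, so factors listed under other names, such as the eIF4A relative CG7483, were not members.

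The experiment measured polyadenylated RNA of whole embryos in 27 libraries, 3 per group. In the first of its arms, embryos were lightly fixed in methanol, stained for DNA and sorted by hand at about nuclear cycle 9, before most zygotic transcription begins. The groups were wild type (w), embryos whose mothers expressed the decay factor Upf1 or the translational repressor Nanos (Nos), embryos with the chimera Upf1-Nos, in which Nos is fused to Upf1, and embryos with Upf1-NosL7, the same chimera without the tail of Nos that is needed for recruitment to hunchback mRNA. Each protein came from a UAS transgene with the nos 3′ UTR driven in the mother by maternal alpha-tubulin GAL4-VP16. Several transgenic lines per construct were tested at the outset. The paper does not state how many lines gave the sequenced embryos, so a genotype may rest on a single line. Upf1-Nos was made above the level of endogenous Nos, and most Upf1-Nos embryos had an abnormal distribution of nuclei, so they were chosen as being of about the same age. In the second arm, unsorted embryos of w mothers and of nos mutant mothers (nosBN over Df(3R)Exel6183, a deficiency that removes nos; written nos) were collected at 0-1 h and at 2-3 h, that is, before and during the maternal-zygotic transition. The study treats the 3 libraries of a group as separate samples, and p-values measure the spread between them.

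Translation starts when eIF2, carrying GTP and the initiator tRNA, joins the small ribosomal subunit together with eIF1, eIF1A, eIF3 and eIF5. The cap-binding protein eIF4E, the scaffold eIF4G and the helicase eIF4A bring in the mRNA, and eIF5B joins the large subunit. eIF2B then reloads eIF2 with GTP. During elongation eEF1 delivers aminoacyl-tRNAs, eEF2 moves the ribosome along, and eEF5 helps it through difficult peptide bonds. Early fly embryos rely on mRNAs deposited by the mother, and translational control of these mRNAs patterns the embryo.

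Library totals ran from 14022879 to 22002028 counts in the sorted embryos and from 15253031 to 21661085 in the unsorted embryos. In the nos libraries the nos gene itself measured 0.207 to 0.689 CPM (counts scaled to the normalized size of the library) at 0-1 h, against 567 to 645 in w, and 1.66 to 2.30 against 63.0 to 79.5 at 2-3 h. Upf1 counts were 405 to 765 CPM in the Upf1 libraries, 34.1 to 62.3 in w, 52.3 to 67.9 in Upf1-NosL7 and 15.4 to 28.6 in Upf1-Nos. The nos gene measured 326 to 404 in w at cycle 9, 364 to 379 in Nos, 231 to 288 in Upf1-NosL7 and 49.1 to 56.3 in Upf1-Nos, so the counts of nos and Upf1 do not check the labels of Nos and the chimeras. A list of 5 maternal mRNAs summed to 1871 to 2079 TPM, a level scaled by transcript length and library, in w at cycle 9 and to 212 to 264 in Upf1-Nos, while 7 zygotic patterning genes summed to at most 16.2 TPM in any sorted library and 9 follicle cell genes to at most 1.69 TPM in any library. Libraries of 1 group also differed along transcript length: in w at cycle 9 the deviation of a member from the group mean had a rank correlation with mRNA length of 0.87 in replicate 3, -0.77 in replicate 1 and -0.63 in replicate 2 over 41 members, and the same measure ran from -0.92 to 0.89 among the Upf1 libraries, as a description of genes that share these libraries. It ran from -0.75 to 0.79 in Upf1-Nos, and at 0-1 h from -0.66 to 0.65 in w and from -0.75 to 0.83 in nos. At 2-3 h it ran from -0.60 to 0.66 in w and from -0.71 to 0.47 in nos. Comparisons in both arms can thus be touched by it. Differences between Upf1-Nos and w for the 4 longest member mRNAs (eIF4G2, eIF4G1, eIF5B and eIF3a) are therefore given with and without w replicate 3.

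At cycle 9 in w the elongation factors led the members. eEF1alpha1, which delivers aminoacyl-tRNA, averaged 5539 ± 720.3 TPM (SD, n = 3) and eEF5 5487 ± 325 TPM, and these did not differ beyond their spread. Then came eEF1beta, the exchange factor of eEF1, at 1960 ± 138 TPM, the translocase eEF2 at 1715 ± 582 TPM and the helicase eIF4A at 1501 ± 224 TPM. The spread of eEF2 overlapped with both of the others, whereas those of eEF1beta and eIF4A did not overlap. The 13 detected eIF3 genes ranged from 107 to 721 TPM, and the 5 eIF2B genes, which encode the exchange factor of eIF2, only from 23.7 to 73.7 TPM. The lowest of the 41 members that were tested at this stage was eIF4G2, a second eIF4G gene, at 11.04 ± 6.41 TPM. All members together held 2.72% ± 0.20 of the TPM in w and 3.33% ± 0.16 in Upf1-Nos. These are shares of uncorrected TPM, without the factors of 1.26, 1.47 and 1.33 used for the Upf1-Nos counts. They therefore do not measure a change in amount.

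Of the 51 members, 10 did not pass the filter on low counts in the sorted embryos and 9 did not in the unsorted ones. These were chiefly second copies of factors that are well expressed from another gene. eIF3g2 had no count in any of the 27 libraries, which allows a level of up to 0.00639 CPM by counting error alone, while eIF3g1 measured 324, 285 and 264 CPM in w at cycle 9. eIF3d2 had 1 count in all libraries together, against 427, 384 and 439 CPM for eIF3d1 in w. eIF4H2 had 17 counts, whereas eIF4H1, which stimulates eIF4A, measured 177, 211 and 268 CPM in w. Of the extra eIF4E genes, eIF4E3, eIF4E4, eIF4E5 and eIF4E7 reached at most 0.29 TPM in any library and eIF4E6 0.80 TPM, so that eIF4E1 and eIF4EHP supplied nearly all detected eIF4E-family mRNA. eIF3f2 reached 2.94 TPM and eEF1alpha2 3.95 TPM, in both cases in unsorted embryos. eIF4E6 had 33 counts over all 15 sorted libraries.

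Upf1-Nos embryos held lower levels of several initiation factor mRNAs, and no elongation factor was called on the main scale described below. This comparison asks which mRNAs are depleted when a decay factor is attached to Nos. Of the 41 members tested, 12 were lower than in w by more than 2-fold at an adjusted p under 0.05 (edgeR quasi-likelihood test, Benjamini-Hochberg over all genes) and 0 were higher. That is 29.3% of the members, while 39.3% of all 6581 genes tested were called lower and 1.05% higher. The median log2 difference was -0.06 for the members and -0.50 for all genes. Without overlap between the libraries of Upf1-Nos and w, 16 members were lower and 3 higher, beside 54.2% and 7.26% of all genes. By complex, 4 of 5 eIF2B genes and the beta and gamma subunits of eIF2 were lower, against 1 of 13 eIF3 genes, 0 of 4 eEF1 genes and neither of the genes for eEF2 and eEF5. The 5 maternal markers were low in the same Upf1-Nos libraries, as given above, and their part in these counts was not tested. Unless another scale is named, CPM and gene log2 differences below are on a scale in which 20 abundant genes set the Upf1-Nos libraries. Of these genes eEF1alpha1, eEF2 and eEF5 are members. The authors picked the 20 for a similar rank order in Upf1-Nos and w and assumed that Upf1-Nos does not regulate them. That these members were not called is therefore partly set by the scale. TPM values are as the authors left them, without these factors. With factors from the other 17 genes the same 12 members were called.

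**Figure D1:**
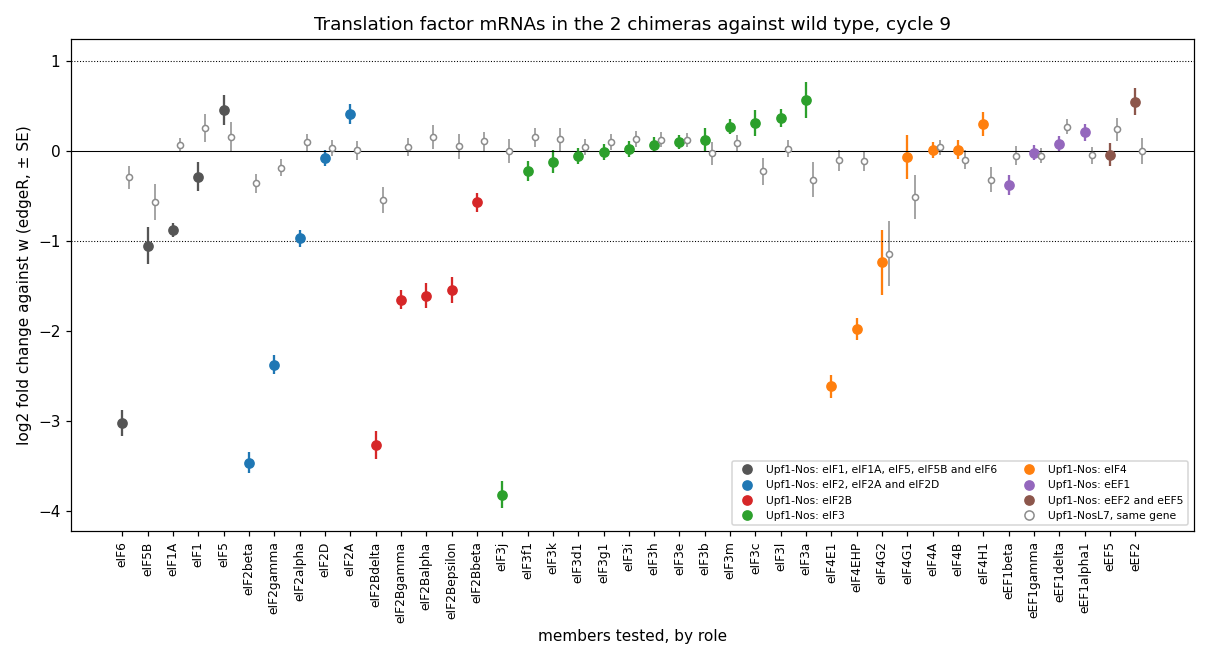
Log2 fold change (± SE) of each of the 41 members tested, on the vertical axis, in Upf1-Nos against w (filled, coloured by role) and in Upf1-NosL7 against w (open) at cycle 9, 3 libraries a group; dotted lines mark 2-fold. Most of the eIF2B genes, eIF2beta, eIF2gamma, eIF3j, eIF6, eIF4E1 and eIF4EHP lie below the lower line in Upf1-Nos, while eEF1, eEF2, eEF5 and the other eIF3 genes lie between the lines.

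The deepest fall was in eIF3j, a loosely bound eIF3 subunit that acts at the decoding site of the small ribosomal subunit. It measured 132, 175 and 121 CPM in w and 10.5, 9.10 and 10.7 in Upf1-Nos, with 151, 137 and 140 in Upf1-NosL7. The 3 Upf1-Nos libraries lay far below all others, and the log2 difference from w was -3.82 ± 0.15 (SE, adjusted p = 1.38e-11). The other eIF3 genes behaved differently: 12 were tested and none was called, with log2 differences from -0.22 for eIF3f1 to 0.57 for eIF3a, the large scaffold subunit. eIF3g1 measured 288, 284 and 297 CPM in Upf1-Nos, eIF3d1 428, 355 and 421, and eIF3f1 287, 296 and 293 against 390, 335 and 296 in w. eIF3j was thus the only tested eIF3 gene called in this comparison.

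All 3 subunits of eIF2 were lower at an adjusted p under 0.05, and 2 of them by more than 2-fold. eIF2beta, through which eIF2 contacts eIF5 and eIF2B, measured 166, 193 and 168 CPM in w and 16.9, 13.6 and 17.3 in Upf1-Nos (log2 -3.46 ± 0.12, adjusted p = 5e-12). eIF2gamma, the GTP-binding subunit, measured 231, 270 and 224 in w and 48.5, 40.5 and 50.9 in Upf1-Nos (log2 -2.37 ± 0.10, adjusted p = 2.85e-11). The groups did not overlap for either gene. eIF2alpha, the subunit whose phosphorylation restrains initiation, fell by slightly less than 2-fold, from 240, 249 and 203 in w to 121, 110 and 123 in Upf1-Nos (log2 -0.97 ± 0.09, adjusted p = 1.85e-07), also without overlap. eIF2A and eIF2D, which can bring initiator tRNA to the ribosome by other routes, had log2 differences of 0.42 and -0.07 and were not called.

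The genes of eIF2B fell by unequal amounts. eIF2Bdelta, a regulatory subunit, measured 38.0, 51.6 and 39.9 CPM in w and 4.81, 3.49 and 5.17 in Upf1-Nos (log2 -3.27 ± 0.16). The catalytic subunit eIF2Bepsilon measured 46.7, 44.6 and 54.0 in w and 18.7, 12.8 and 18.4 in Upf1-Nos (log2 -1.54 ± 0.14), and its partner eIF2Bgamma 67.1, 64.7 and 60.7 against 21.7, 17.4 and 22.3 (log2 -1.65 ± 0.11). eIF2Balpha, a further regulatory subunit, measured 46.4, 48.8 and 35.2 in w and 14.5, 12.6 and 15.6 in Upf1-Nos (log2 -1.61 ± 0.14). Their adjusted p-values ran from 8.18e-11 to 1.15e-07 and no library of one group reached into the other. eIF2Bbeta, the remaining regulatory subunit, was not called (81.0, 87.5 and 68.6 in w, 52.7, 52.9 and 54.3 in Upf1-Nos, log2 -0.57 ± 0.10).

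Among the cap-binding factors, both expressed eIF4E-type genes fell. eIF4E1, the main cap-binding protein, measured 945, 1048 and 912 CPM in w and 179, 125 and 170 in Upf1-Nos (log2 -2.62 ± 0.13, adjusted p = 8.54e-11). eIF4EHP binds the cap but not eIF4G and serves as a repressor of maternal mRNAs in fly embryos. It measured 125, 125 and 136 CPM in w and 37.8, 27.2 and 32.9 in Upf1-Nos (log2 -1.98 ± 0.12, adjusted p = 7.57e-10). The rest of the cap complex was not called: eIF4A measured 2124, 1770 and 2036 in w and 2124, 1827 and 2037 in Upf1-Nos (log2 0.01 ± 0.08), and eIF4G1, the main scaffold, 295, 350 and 605 against 460, 317 and 420 (log2 -0.06 ± 0.25). eIF4H1 measured 284, 264 and 263 in Upf1-Nos (log2 0.30 ± 0.14).

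eIF6, which keeps free large subunits from joining small ones, was also among the deepest falls, at 95.96, 94.1 and 71.9 CPM in w and 11.7, 9.73 and 10.8 in Upf1-Nos (log2 -3.02 ± 0.14, adjusted p = 5.71e-11). eIF1A, which holds the scanning ribosome open, stayed within 2-fold at a log2 difference of -0.88 ± 0.08. The remaining 2 calls rested on long mRNAs and on 1 library. eIF5B, the GTPase of subunit joining, measured 73.5, 82.9 and 130 in w and 50.8, 34.8 and 52.7 in Upf1-Nos (log2 -1.05 ± 0.21), and eIF4G2 47.5, 78.2 and 128 against 45.0, 23.0 and 40.2 (log2 -1.23 ± 0.36, adjusted p = 0.00735). Without w replicate 3 the log2 differences were -0.72 for eIF5B, inside the 2-fold limit, and -0.75 for eIF4G2 (adjusted p = 0.0547), which would then also be left out as a gene called in Upf1. Those of eIF4G1 and eIF3a, which were not called either way, were 0.35 and 0.84 without it, against -0.06 and 0.57 with it. Leaving out Upf1-Nos replicate 2 also brought eIF5B inside the limit, at -0.90. eIF2alpha passed it without w replicate 1 (-1.01) or without w replicate 3 (-1.01).

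**Figure D2:**
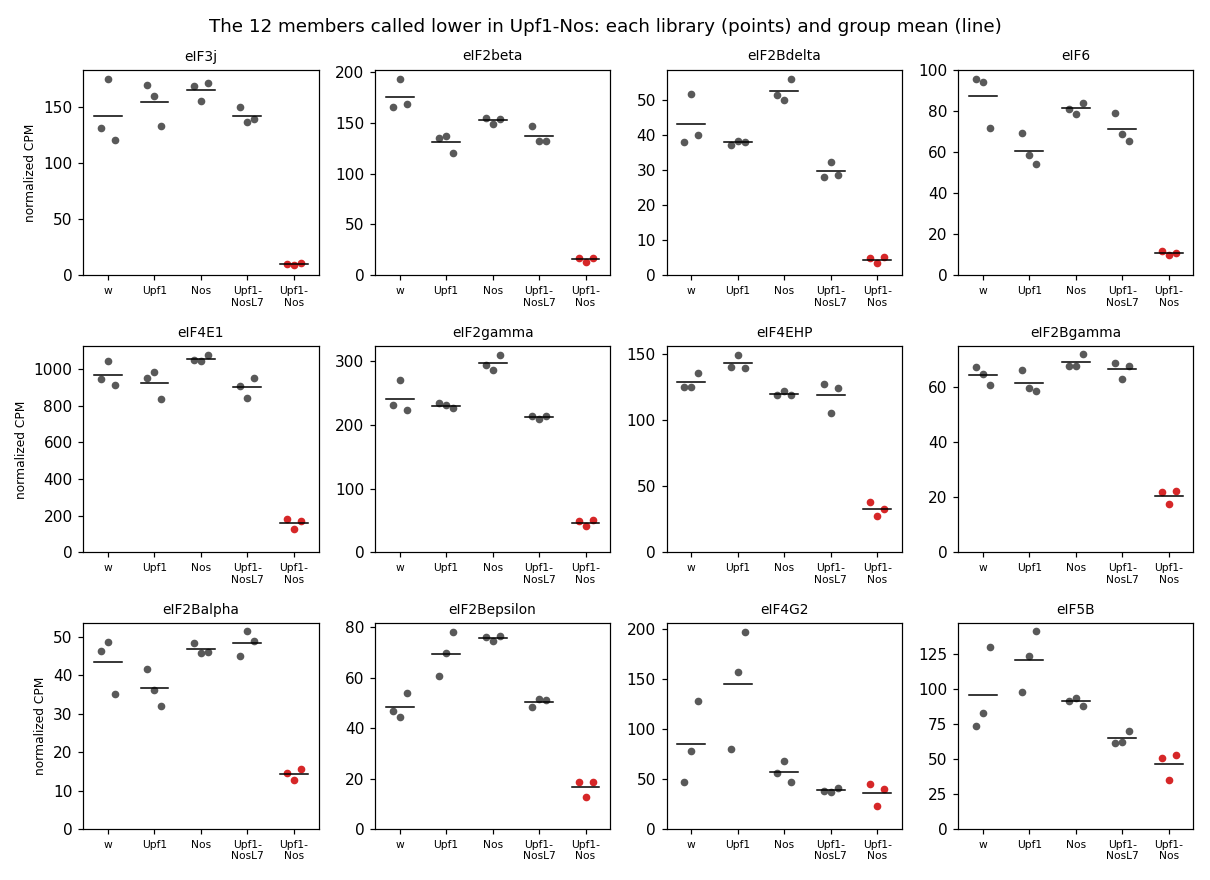
Normalized CPM (vertical axis, starting at 0) of the 12 members called lower in Upf1-Nos, 1 panel a gene, in each of the 15 sorted libraries (points) with the mean of 3 libraries (line). For 11 of the genes every Upf1-Nos library (red) lies below every library of the other 4 groups, by a wide gap for eIF3j, at 9.10 to 10.7 against 121 to 175 in w, and by a narrow one for eIF5B, whereas the eIF4G2 libraries of Upf1-Nos and Upf1-NosL7 overlap.

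None of the elongation factors was called on this scale. eEF1alpha1 measured 9056, 9282 and 9578 CPM in w and 11704, 9238 and 11373 in Upf1-Nos (log2 0.21 ± 0.10), and eEF5 3067, 3128 and 2358 against 2662, 2973 and 2682 (log2 -0.04 ± 0.13). eEF2 measured 4157, 3404 and 5283 in w and 7130, 5175 and 6510 in Upf1-Nos (log2 0.55 ± 0.15, adjusted p = 0.00409, within 2-fold), with 1 Upf1-Nos library inside the range of w. That overlap rested on w replicate 3, without which the log2 difference of eEF2 was 0.77 (edgeR adjusted p = 0.000111), still within 2-fold. These 3 genes took part in setting the scale: before it was set, the ratio of eEF2 to w was 2.01, 1.70 and 1.93 in the 3 Upf1-Nos libraries, the highest of the 20 genes in each. eEF1beta, at 1292, 1159 and 944 in w and 836, 874 and 905 in Upf1-Nos, had a log2 difference of -0.38 ± 0.11.

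The scale decides the outer calls. With TMM factors in all libraries, which assume that most genes do not differ, every log2 difference between Upf1-Nos and w was higher by about 0.57. On that scale 9 members were still called lower (eIF3j, eIF2beta, eIF2Bdelta, eIF6, eIF4E1, eIF2gamma, eIF4EHP, eIF2Bgamma and eIF2Balpha, from -3.25 to -1.04), and 3 were called higher: eIF5 at 1.02, eEF2 at 1.11 and eIF3a at 1.13. The median gene was then at 0.05, and the shares of all genes called were not computed on that scale. On that scale 11 of the 41 members, none of them called, changed from a negative to a positive difference: eIF2Bbeta (0.01), eEF1beta (0.21), eEF1gamma, eEF5, eIF1, eIF2D, eIF3d1, eIF3f1, eIF3g1, eIF3k and eIF4G1.

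The 2 chimeras differ by the tail of Nos, and the difference between them was tested directly. Against Upf1-NosL7, 11 members were lower and 0 higher in Upf1-Nos, or 26.8% of 41, beside 38% and 4.1% of all genes. Of the 12 genes above, 10 were again called, from eIF3j at -3.82 ± 0.15 to eIF2Bepsilon at -1.60 ± 0.14. eIF2alpha passed here, with 232, 260 and 246 CPM in Upf1-NosL7 and a log2 difference of -1.06 ± 0.09. This call was lost with TMM in all libraries (-0.49), with median ratio size factors (-0.53) and by limma on TPM (-0.99). eIF5B (-0.49 ± 0.21) and eIF4G2 (-0.10 ± 0.36) were not called between the chimeras. For eIF4E1 the libraries were 910, 842 and 952 in Upf1-NosL7, close to w, and for eIF2beta 147, 132 and 132. Under TMM in all libraries 10 were lower and 5 higher (eEF2, eIF4G1, eIF3c, eIF3a and eIF4H1). The median gene was at 0.06 on that scale, and the shares of all genes called were not computed there.

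The single proteins and the tailless chimera moved few members. In Upf1 against w, 0 of 41 members were called in either direction by edgeR, by DESeq2 or by limma on log2(TPM + 1). Over all genes 2.3% were called lower and 1.72% higher by edgeR. With no fold limit, 12 members had an unadjusted p under 0.05 by edgeR. The share of all genes at that limit was not computed. eIF4G2 was called higher in Upf1 without w replicate 3 (log2 1.14, adjusted p = 0.0222 by edgeR) or without Upf1 replicate 1 (1.06, adjusted p = 0.0423). In Nos against w the count of called members was again 0 with each of these tools, beside 2.87% and 2.73% of all genes by edgeR. With no fold limit, 9 members had an unadjusted p under 0.05 by edgeR, again without a share of all genes at that limit. The largest shift toward higher levels in Nos was that of eIF2Bepsilon, at 76.2, 74.6 and 76.6 CPM (log2 0.65 ± 0.14, adjusted p = 0.00427, within 2-fold), a gene at 60.5, 69.7 and 78.2 in Upf1. In Upf1-NosL7 against w 1 member was lower and 0 higher, beside 1.75% and 0.988% of all genes. That gene was eIF4G2, at 37.6, 36.8 and 41.2 CPM (log2 -1.14 ± 0.36, adjusted p = 0.0463). It was not called without w replicate 3 (-0.67, adjusted p = 0.226) or without w replicate 2 (adjusted p = 0.0816), nor when any 1 Upf1-NosL7 library was left out (adjusted p = 0.12, 0.148 and 0.102).

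The members called lower in Upf1-Nos had a median level in w of 69.5 TPM, from 11.04 to 834 TPM (n = 12), against 379 TPM, from 41.5 to 5539 TPM, for the other 29 tested members. The ranges overlapped widely, and eIF4E1 was the highest of the 12. Over all genes tested the median was 48.3 TPM, and 37.9 TPM for those called lower. Their 3′ UTRs were of all sizes. The most expressed coding isoform of the called members had a median 3′ UTR of 281.5 nt, from 23 nt in eIF2Balpha to 2009 nt in eIF4G2, against 195 nt for the members not called and 241 nt over all genes with a length.

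Isoforms resolved the fall of eIF4EHP. Its most abundant isoform in w, FBtr0084587, with an annotated 3′ UTR of 730 nt, measured 64.6, 67.4 and 81.0 TPM in w and 5.86, 3.61 and 5.80 TPM in Upf1-Nos (log2 -4.16 ± 0.17, adjusted p = 5.74e-10 by edgeR over all isoforms). A second isoform, FBtr0300475, with a 3′ UTR of 1201 nt, was not called and measured 8.95, 7.66 and 13.7 TPM in w and 18.3, 13.7 and 15.5 TPM in Upf1-Nos (log2 0.31 ± 0.19). In Upf1-Nos the order of these isoforms was thus the inverse of that in w. In Upf1-NosL7 the first isoform measured 58.2, 47.9 and 63.4 TPM. Of 88 member isoforms tested in this comparison 23 were lower and 3 higher, beside 32.8% and 1.73% of all isoforms. Of 9 tested isoforms of eIF4E1, 8 were called lower, and the remaining one, FBtr0333885, was not (adjusted p = 0.0596). Reads shared between isoforms of a gene are split by estimation, so single isoform values are less certain than gene values. The TPM values here carry no Upf1-Nos factors, while the log2 differences do.

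**Figure D3:**
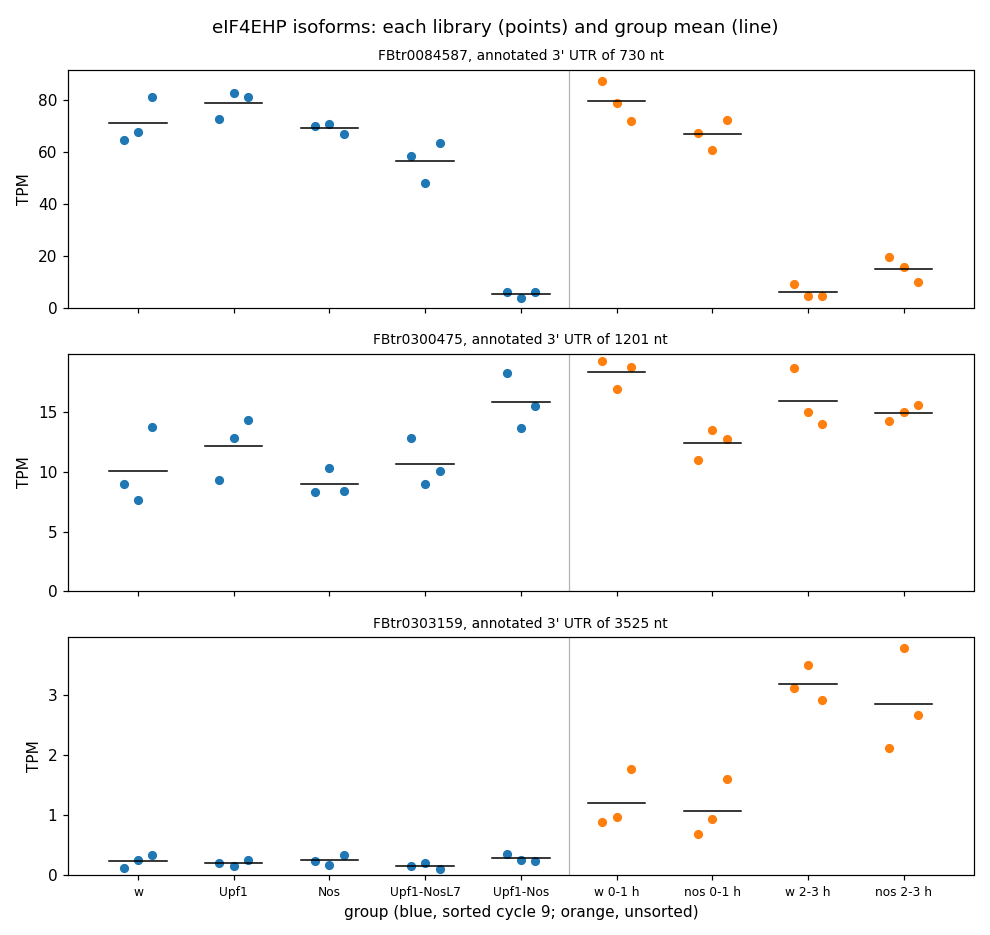
TPM (vertical axes, starting at 0, without the Upf1-Nos factors) of 3 eIF4EHP isoforms in each of the 27 libraries (points) with the mean of 3 libraries (line), sorted cycle 9 groups in blue and unsorted groups in orange. The isoform with the 730 nt 3′ UTR is at 3.61 to 5.86 TPM in Upf1-Nos and at 4.56 to 8.99 TPM in w at 2-3 h, against 64.6 to 81.0 TPM in w at cycle 9, whereas the 1201 nt isoform has no such fall.

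The comparison of ages in w asks how the same mRNAs change as maternal mRNA is cleared. From w at 0-1 h to w at 2-3 h, 10 of 42 members were lower by more than 2-fold and 4 higher, or 23.8% and 9.52%, beside 25.4% and 17.1% of all 8445 genes. In whole embryos, an mRNA held in a smaller part of the embryo and less of it throughout cannot be told apart. The fall was deepest in eIF4E1, from 639, 648 and 607 CPM to 118, 114 and 101 (log2 -2.51 ± 0.13, adjusted p = 1.67e-08). eIF2Bdelta went from 98.7, 87.8 and 66.2 to 17.4, 16.1 and 18.4 (log2 -2.28 ± 0.15), and eIF6 from 68.4, 78.2 and 67.1 to 25.4, 27.2 and 31.3 (log2 -1.35 ± 0.11). eIF4G2 fell from 312, 234 and 255 to 105, 79.9 and 72.8 (log2 -1.64 ± 0.16) and eIF3j from 121, 130 and 113 to 28.7, 39.6 and 49.9 (log2 -1.62 ± 0.17). The remaining 5 were eIF2beta (-1.31), eIF2Bgamma (-1.28), eIF4EHP (-1.18), eIF2gamma (-1.13) and eIF2Bepsilon (-1.12). The groups did not overlap in any of the 10. Among all tested members 15 were lower and 25 higher without overlap, beside 36.8% and 43% of all genes.

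Relative to the other mRNAs of their libraries, elongation factors and most of eIF3 moved the other way over the same interval. Members with a positive difference at an adjusted p under 0.05 numbered 25 of 42, against 15 with a negative one, beside 41.2% and 36.6% of all genes, though only 4 exceeded 2-fold. One of the 4 was eEF1alpha2, the second eEF1 alpha gene. It passed the filter on low counts only through the 2-3 h libraries, so its call is no evidence of a difference, and its values are given as a description: 13, 8 and 11 counts at 0-1 h (0.601, 0.407 and 0.614 CPM) and 91, 118 and 163 counts at 2-3 h (5.86, 7.12 and 9.63 CPM). These levels were far below those of eEF1alpha1, which went from 9989, 9682 and 9523 to 14189, 14774 and 14292 (log2 0.57 ± 0.03). eIF4H1 went from 330, 285 and 263 to 706, 644 and 736 (log2 1.25 ± 0.09), eIF3a from 657, 526 and 505 to 1247, 1188 and 1233 (log2 1.12 ± 0.10) and eIF3g1 from 204, 199 and 171 to 388, 400 and 439 (log2 1.09 ± 0.09). eEF2 went from 4739, 4628 and 4581 to 8110, 8395 and 8066 and eIF4A from 1554, 1661 and 1577 to 2992, 3242 and 3298, both within 2-fold (log2 0.82 ± 0.04 and 0.99 ± 0.06). Thus 12 of 13 eIF3 genes had a positive difference and eIF3j a negative one. The median over all genes was 0.25. TMM, which assumes that most genes do not differ, set the scale here while maternal mRNA was being cleared. Amounts per embryo were not measured, so an mRNA that was kept and one that was made anew cannot be told apart. Of these calls, eIF3a and eIF3g1 lay just within 2-fold without a filter and in a fit of the w libraries alone (0.97 and 0.95), eIF3g1 also without w replicate 2 (0.98) or 3 (0.89) of 2-3 h and eIF3a without the latter (0.96), and the 3 initiation factor genes lay within 2-fold by limma on TPM (0.69 to 0.74).

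The isoforms of eIF4EHP moved apart here too. FBtr0084587 went from 87.3, 78.7 and 72.0 TPM at 0-1 h to 8.99, 4.58 and 4.56 TPM at 2-3 h (log2 -3.37 ± 0.28), while FBtr0300475 was at 19.3, 16.95 and 18.8 and then 18.7, 14.99 and 13.98 TPM. FBtr0303159, with a 3′ UTR of 3525 nt, was near the filter on low counts and measured 0.89, 0.97 and 1.76 and then 3.11, 3.49 and 2.92 TPM. For eIF2gamma, isoform FBtr0310386 fell by 1.61 on the log2 scale while FBtr0310387, which has the same 3′ UTR length of 383 nt, was low at 0-1 h and measured 1.73, 1.46 and 0.53 and then 7.74, 14.7 and 13.7 TPM, given as a description.

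Embryos without maternal Nos held higher levels of several members at 2-3 h, at a share close to that of all genes. The comparison asks which mRNAs persist when Nos is absent. Of 42 members 7 were higher by more than 0.5 on the log2 scale and 0 lower, or 16.7%, beside 18.6% and 8.8% of all genes. eIF4E1 led, at 264, 235 and 174 CPM in nos against 118, 114 and 101 in w (log2 1.02 ± 0.13, adjusted p = 0.00014). Of the eIF2B genes 3 rose: eIF2Bepsilon measured 62.8, 58.4 and 53.7 in nos and 38.0, 35.1 and 31.8 in w (log2 0.74 ± 0.12), eIF2Bdelta 30.2, 28.4 and 24.7 against 17.4, 16.1 and 18.4 (log2 0.68 ± 0.15), and eIF2Balpha 25.0, 28.1 and 26.1 against 18.1, 15.9 and 19.9 (log2 0.56 ± 0.11). eIF6 measured 49.5, 46.8 and 40.7 in nos and 25.4, 27.2 and 31.3 in w (log2 0.71 ± 0.11, adjusted p = 0.000403). These groups did not overlap. Among all tested members 10 were higher and 17 lower without overlap, beside 29.1% and 28.5% of all genes. eIF2beta (0.54 ± 0.16, adjusted p = 0.0177) and eIF3j (0.52 ± 0.17, adjusted p = 0.0252) were called although their libraries overlapped with w. Both lost the call without w replicate 1, w replicate 2 or nos replicate 2 (adjusted p from 0.0555 to 0.1), and eIF3j also without nos replicate 1 (adjusted p = 0.056) and in a fit of the 2-3 h libraries alone (adjusted p = 0.0603). With no size limit, 10 members were higher and 9 lower, among the latter eIF4A (log2 -0.26 ± 0.05) and eIF4B (-0.43 ± 0.12). At any size 25.3% of all genes were higher and 20.2% lower. The elongation factors eEF1beta (-0.23 ± 0.08) and eEF1gamma (-0.17 ± 0.05) were also among the 9, and no elongation factor passed the 0.5 limit.

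At 2-3 h the nos libraries also held less of the zygotic markers, 336 to 465 TPM in sum against 566 to 624 TPM in w. As a sum the 5 maternal markers held 265 to 406 TPM against 166 to 291 TPM. The maternal list (bcd, osk, nos, gcl and pgc) includes the mutated gene itself. At 0-1 h its sum was lower in nos, at 1575 to 1622 TPM against 2085 to 2251 TPM in w. The zygotic list holds patterning genes, and the paper states that gene expression is drastically altered without maternal Nos. Neither sum is thus a measure of age alone. The part of these differences in the values above was not tested. In nos the eIF4EHP isoform FBtr0084587 measured 19.5, 15.4 and 9.89 TPM (log2 1.18 ± 0.26, adjusted p = 0.0101) and FBtr0300475 14.3, 14.99 and 15.6 TPM (log2 -0.23, not called). eIF4A as a gene was not called, but its isoform FBtr0079175 was at 126, 77.8 and 93.4 TPM in nos and 242, 284 and 229 TPM in w (edgeR adjusted p = 0.000205), and was lower in nos at 0-1 h as well (log2 -0.86 ± 0.16).

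**Figure D4:**
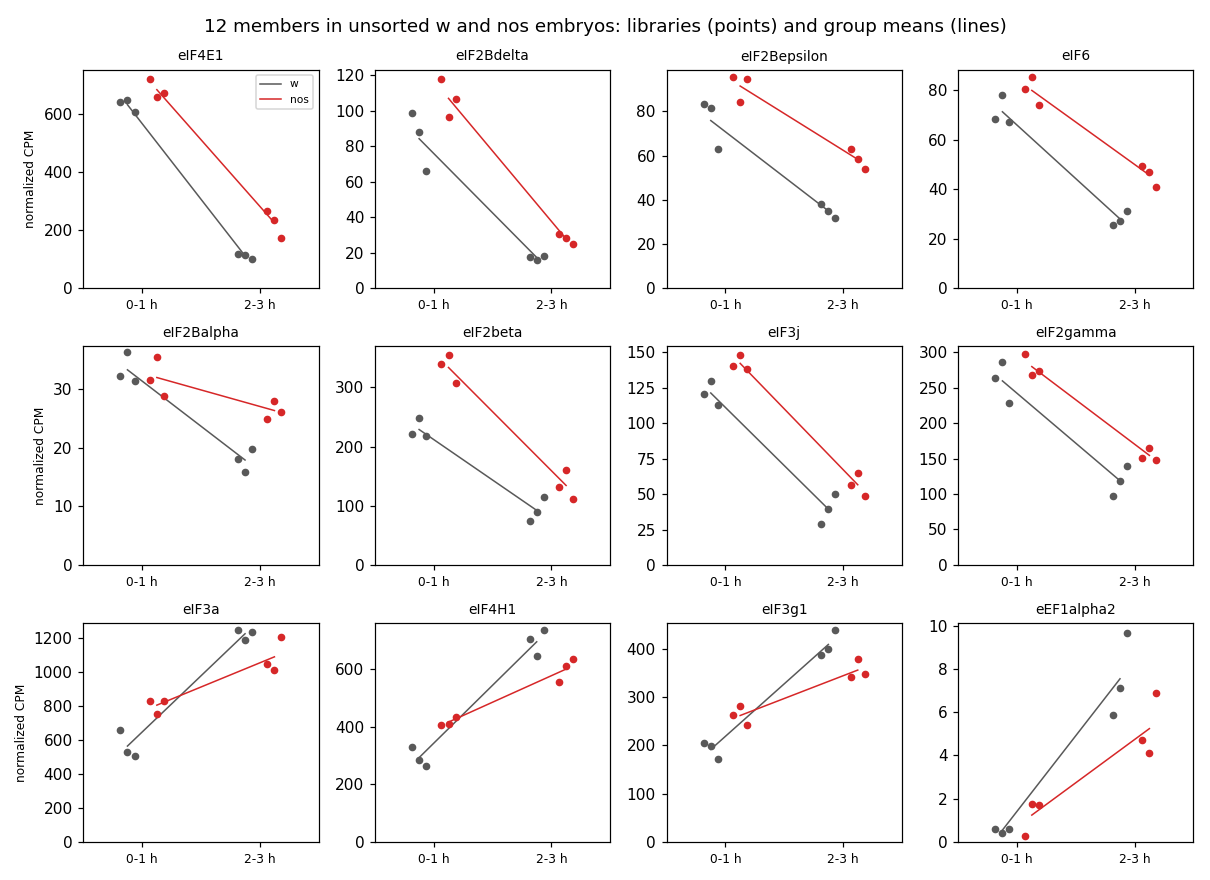
Normalized CPM (vertical axis, starting at 0) of 12 members at 0-1 h and 2-3 h in w (grey) and nos (red), libraries as points and means of 3 libraries joined by lines. The means of eIF4E1, the 3 eIF2B genes and eIF6 are lower at 2-3 h than at 0-1 h in both genotypes and higher in nos at 2-3 h, as for eIF4E1 at 174 to 264 against 101 to 118, whereas the means of eIF3a, eIF4H1 and eIF3g1 are higher at 2-3 h, by less in nos on the count scale used here.

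At 0-1 h the differences between nos and w were small. Of 42 members 3 were higher and 0 lower, or 7.14%, beside 10.9% and 6.74% of all genes. eIF2beta measured 339, 355 and 306 in nos and 222, 247 and 217 in w (log2 0.54 ± 0.16, adjusted p = 0.0261), eIF3a 827, 752 and 830 against 657, 526 and 505 (log2 0.51 ± 0.10, adjusted p = 0.00355) and eIF4H1 407, 409 and 433 against 330, 285 and 263 (log2 0.51 ± 0.09, adjusted p = 0.00233). With no size limit 22 members were higher and 0 lower by edgeR, beside 18.5% and 8.27% of all genes. At an unadjusted p under 0.05 by edgeR there were 26 in either direction. The share of all genes at that limit was not computed. The median log2 difference over all genes was 0.09, and median ratio size factors moved it by -0.077. Among the 22 were eEF1alpha1 (log2 0.29 ± 0.03) and eEF2 (0.36 ± 0.04). The 3 calls lay close to the 0.5 limit: with median ratio size factors, with limma on TPM and in a fit of the 0-1 h libraries alone 0 of them were called, and without w replicate 3 none of the 3 was. Each of the other 5 libraries at this age, when left out, also removed at least 1 of them.

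The effect of nos differed between the ages for 8 members, by the interaction term of the same fit. Relative to its size at 0-1 h, the effect at 2-3 h was higher for eIF4E1, eIF2Balpha and eIF6 and lower for 5 members, eIF4H1, eIF3a, eIF3g1, eIF2A and eIF3h, that is, 7.14% and 11.9% beside 12.4% and 10.1% of all genes. With median ratio size factors, which shift the median gene by 0.135 in this comparison, eIF2A and eIF3h were no longer called, and with limma on TPM none of the 5 lower calls remained, while the 3 higher calls remained in both. Leaving out w replicate 1 or nos replicate 3 at 2-3 h raised the count to 14 and 13. eIF6 fell inside the limit without w replicate 2 or nos replicate 3 at 0-1 h or w replicate 1 at 2-3 h (0.47 to 0.48), eIF3g1 without w replicate 3 or nos replicate 1 at 2-3 h (-0.44 and -0.48), and both eIF2A and eIF3h without w replicate 3 at 0-1 h or w replicate 2, w replicate 3 or nos replicate 1 at 2-3 h (from -0.48 to -0.38 and from -0.49 to -0.33). eIF3h did so without nos replicate 1 at 0-1 h too.

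The sorted and the unsorted arms share no library, so their calls can be set side by side. All 7 members called higher in nos at 2-3 h were among the 12 called lower in Upf1-Nos (58.3% of the 12, 100% of the 7), and none was among the other 29. Over all genes in both fits the shares were 42.8% of those lower in Upf1-Nos and 4.84% of the rest. Of all genes higher in nos at 2-3 h, 85.2% (1105 of 1297) were lower in Upf1-Nos, beside the 100% of the 7 members. Of the same 12 members, 10 (83.3%) were called lower from 0-1 h to 2-3 h in w, beside 74.1% of all genes lower in Upf1-Nos and 4.11% of the rest. The members outside this pattern were eIF2Balpha and eIF5B, at -0.89 and -0.86 over time and within 2-fold. Both were called lower in a fit of the w libraries alone (-1.04 and -1.01) and by limma on TPM (-1.27 and -1.26), and eIF2Balpha also without a filter (-1.01). Across the 41 members the rank correlation of the Upf1-Nos difference was 0.81 with the difference over time in w and -0.67 with that of nos at 2-3 h, against 0.80 and -0.59 over 6543 genes, as a description across genes that share libraries. The last 2 comparisons share the w libraries of 2-3 h.

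**Figure D5:**
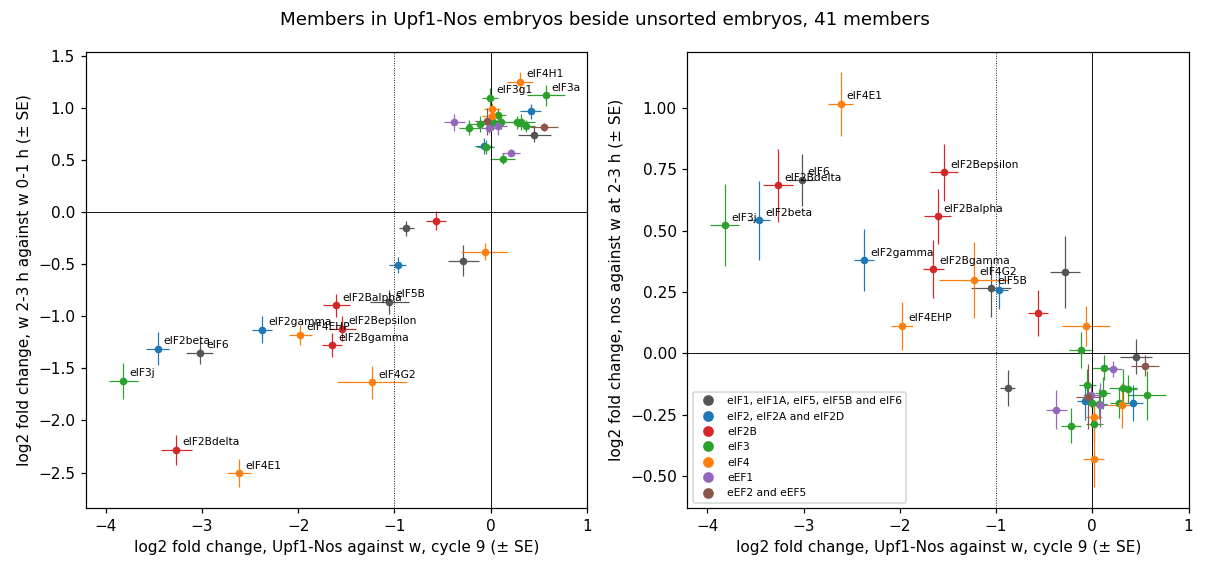
Log2 fold change (± SE) of 41 members in Upf1-Nos against w at cycle 9 (horizontal axis) beside that of w from 0-1 h to 2-3 h (left) and of nos against w at 2-3 h (right), points coloured by role; the dotted line marks 2-fold. Members low in Upf1-Nos, such as eIF4E1 at -2.62, lie below 0 on the left (-2.51) and above 0 on the right (1.02), while elongation factors and most eIF3 genes form a group near 0 on the horizontal axis and above 0 on the left.

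Genes that act with the factors but carry other names were read from a list of 18. In Upf1-Nos against w 4 of 16 tested (25%) were lower and 0 higher, beside 39.3% and 1.05% of all genes: mxt, an eIF4E-binding protein that promotes translation (log2 -5.14 ± 0.17), S6k, the ribosomal protein kinase of the TOR pathway (-2.77 ± 0.19), eRF3, the termination GTPase (-1.45 ± 0.15), and cup, the eIF4E-binding repressor of maternal mRNAs (-1.10 ± 0.22). NAT1 and eEFSec were left out there because they were called in Upf1 (1.80 and -1.05). Over time in w 4 of 18 were lower, beside 25.4% of all genes, namely cup (-1.96), mxt (-3.97), NAT1, an eIF4G relative (-1.89), and eRF3 (-1.29). These 4 were also those higher in nos at 2-3 h (cup 0.93, mxt 1.22, NAT1 1.07, eRF3 0.73), beside 18.6% of all genes. At 0-1 h in nos 1 of 18 was lower and 1 higher, beside 6.74% and 10.9% of all genes. These were Thor, the 4E-BP (-0.55, edgeR adjusted p = 0.0486), and MCTS1, a re-initiation factor (0.84). Thor was also lower against w in the sorted arm, within 2-fold, at -0.95 in Nos, -0.78 in Upf1, -0.65 in Upf1-NosL7 and -0.61 in Upf1-Nos. MCTS1 was not called there, with differences from 0.12 in Upf1-Nos to 0.72 in Upf1-NosL7.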

How the data were processed

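The authors trimmed the reads, removed those of mitochondrial, transfer and ribosomal RNA, aligned the rest with STAR 2.5.3a and quantified genes and isoforms with RSEM 1.3.0 on annotation BDGP6.22. The deposited tables hold RSEM expected counts and, separately, TPM, which the authors left without further normalization between libraries. Sorted and unsorted embryos were deposited in separate tables and tested separately. Sample groups were taken from the labels, with 3 libraries in each. Whether replicates came from separate crosses is not given in the sources used here, and each pair of libraries of a group differed by more than sampling noise (chi-square per degree of freedom of at least 6.56), so none was treated as a repeat. Members were found by matching symbols to the gene identifiers of the files (17587 of 17714 had a symbol). Members and lists were chosen with earlier results of these data known.

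Expected counts were rounded and tested with edgeR 4.0.16 in R 4.3.3 (quasi-likelihood test in its legacy form, filterByExpr with a minimum of 30 counts, TMM normalization, Benjamini-Hochberg over all genes tested), with all libraries of an arm in 1 fit. Following the study, the normalization factors of Upf1-Nos libraries were replaced by the mean ratio to w of 20 abundant genes (1.26, 1.47 and 1.33), and genes called in Upf1 were left out of the comparisons with the chimeras (no member was). The threshold was an adjusted p of 0.05 with 2-fold, or with 0.5 in log2 for nos and the interaction. CPM are counts scaled by these factors. Fold changes of TPM were taken on the log2(TPM + 1) scale with limma 3.58.1, and DESeq2 1.42.0 served as another count test. The statistical steps were tested on simulated data only for Upf1-NosL7 against w and for nos against w at 2-3 h. Comparisons of Upf1-Nos, with its replaced factors and many lower genes, were not simulated. Per-library values and full statistics were given for called members whose groups did not overlap, up to 12 a comparison by size of the change, for the 3 members that set the scale, for the 5 highest in w and for pairs of related genes, and the other members by ranges; eIF1A, eIF2alpha, eIF2Bbeta and eIF2Bepsilon in Nos were added after their values were seen. The labels do not say whether replicate numbers pair the samples. Residuals of nos and w libraries with the same number correlated at 0.15 to 0.49 at 0-1 h and at 0.12 to 0.48 at 2-3 h. All were above the minimum of 0.1 set for a pairing. The p-values given for nos come from a fit without a replicate block, and the counts with the block are given below. Across ages in w the same measure ran from -0.17 to 0.32.  Isoform UTR lengths came from annotation BDGP6.54, matched by identifier, and sequences were not used here. Alternatives were another filter, test, scaling and set of libraries, the replicate block, TPM, no fold limit and leaving out each library. Intervals and limits of detection cover counting error only.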

Additional observations from a re-analysis of the deposited data

Results flagged for a closer look

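Differences between ages in the effect of nos, tested by the interaction term, passed the threshold for 8 members. The effect at 2-3 h minus that at 0-1 h was 0.90 ± 0.18 for eIF4E1, 0.62 ± 0.16 for eIF2Balpha and 0.54 ± 0.15 for eIF6 on the log2 scale, and -0.72 ± 0.13 for eIF4H1, -0.68 ± 0.14 for eIF3a, -0.65 ± 0.13 for eIF3g1, -0.55 ± 0.10 for eIF2A and -0.52 ± 0.08 for eIF3h (SE, edgeR adjusted p from 0.00234 to 0.0168). The same term was 1.29 ± 0.37 for the eIF4EHP isoform FBtr0084587 (edgeR adjusted p = 0.0457 over all isoforms).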

How the results depend on the processing

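No direction of a called member reversed under any alternative run. Counts of called members moved most when the fold limit was dropped: they were then 3 in Upf1, 5 in Nos, 4 in Upf1-NosL7, 22 in Upf1-Nos against w, 24 against Upf1-NosL7, 22 and 19 in nos at 0-1 h and 2-3 h, 40 over time in w and 26 for the interaction. For nos at 0-1 h the count was 5 with the default filter and with no filter (eIF3k and the low eIF3f2 were added), and 0 with median ratio size factors, with limma on TPM and with the compared groups only. In Upf1-NosL7 against w it was 0 with limma on TPM. Leaving out 1 library at a time gave 0 to 1 calls in Upf1, 0 to 0 in Nos, 0 to 1 in Upf1-NosL7, 11 to 13 in Upf1-Nos against w, 11 to 12 against Upf1-NosL7, 1 to 4 and 5 to 8 in nos at 0-1 h and 2-3 h, 14 to 16 over time and 6 to 14 for the interaction. Median ratio size factors split the calls in Upf1-Nos into 9 lower and 3 higher against w, and 10 lower and 4 higher against Upf1-NosL7. They split the interaction into 3 lower and 5 higher, and limma on TPM into 0 and 9. Shares of all genes called were computed only for the main runs and, with no fold limit, for nos at both ages and w over time.

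With the replicate number as a block the count in Upf1-NosL7 against w was 0 (eIF4G2, adjusted p = 0.0608). The block left the counts at 12 and 11 for Upf1-Nos against w and against Upf1-NosL7, 0 in Upf1 and in Nos, 3 and 7 in nos, 14 over time and 8 for the interaction. In the sorted arm same-numbered residuals correlated at 0.07 to 0.66 for Upf1 and w, -0.27 to -0.001 for Nos and w, -0.03 to 0.30 for Upf1-NosL7 and w, -0.40 to 0.18 for Upf1-Nos and w and -0.07 to 0.22 for the chimeras, with a pair under 0.1 in each.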
